A study of Mus musculus with 2 samples.

Results

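Histone genes of the clustered Hist loci were examined in single thymic cells sorted as the regulatory T cell (Treg) lineage of 2 mice. Every feature named Hist1h, Hist2h, Hist3h or Hist4h was taken, 67 features in all, and the 61 with at least 10 unique molecular identifiers (UMIs, each standing for 1 captured transcript) over all cells were kept out of 32285 genes. Members numbered 5 of 6 H1 genes, 15 of 18 H2A genes, 16 of 18 H2B genes, 12 of 12 H3 genes and 13 of 13 H4 genes. Hist1h2aa, Hist1h2ba, Hist1h2bq and Hist2h2aa2 had 0 UMIs, Hist1h1t had 1 and Hist1h2ah 5, and the lowest members were Hist1h2ao with 15, Hist2h3c2 with 16 and Hist1h3h with 21 UMIs. The donors were 1 C57BL/6 Foxp3eGFPxLta-/- mouse, which lacks the lymphotoxin alpha gene, and 1 C57BL/6 Foxp3eGFP mouse, and both carried the Foxp3eGFP reporter. Cells had been depleted of CD8+ and CD11c+ cells, then sorted as live CD4+CD8-CCR6-CD3e+ cells with surface CD25, the reporter, or the pair of them. The sorted cells of each mouse received a barcoded antibody (hashtag), were pooled and went through 1 capture with 10x Genomics 3′ chemistry. The ages of the mice are not given in the labels.

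Core histones H2A, H2B, H3 and H4 form the protein spool of the nucleosome, and H1 is the linker histone that binds where the DNA enters and leaves it. Replication-dependent histone genes sit in clusters without introns, and their transcripts build up in S phase, when new DNA needs new nucleosomes, and are degraded when replication ends. Their transcripts usually end in a stem-loop bound by Slbp instead of a poly(A) tail. A library primed on A-rich ends therefore captures only a part of them, and how large a part was not measured here. In the thymus, cell division is concentrated among immature T cell precursors.

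The start-proximal DNA of members was read from RefSeq windows (build GRCm38.p6) to show what the gene types share and where they differ. Windows of 300 bases, 250 upstream and 50 downstream of the start, were found for 54 of the 61 members. Motifs were searched on both strands by their exact letters. They were the CCAAT box, the TATA box written TATAAA, the octamer ATTTGCAT known from H2A and H2B promoters, and the H1 box AAACACA known from H1 promoters. CCAAT was present in 83.3% of member windows and in 37.4% of the 32851 windows of all genes. It stood in every H1, H2A, H2B and H3 window and in 3 of 12 H4 windows. TATAAA was found in 59.3% of member windows and in 13.6% of all windows. ATTTGCAT occurred in 5 of 14 H2A and 5 of 13 H2B windows, in 0 of the others, and in 1.74% of all windows. AAACACA occurred in 4 of 5 H1 windows, starting 122 to 112 bases upstream of the gene start, in 1 of 14 H2A and 1 of 13 H2B windows, in 0 H3 or H4 windows, and in 7.18% of all windows. None of the 4 motifs lies within another. A match describes letters only and was not tested as a site.

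The H1, H3 and H4 windows below belong to the member of each type with most UMIs, and that of Hist3h2ba to a member with one of the smallest ratios between cycling and other cells. Each holds the 250 bases upstream of the start, 5′ to 3′ on the strand of the gene, with matches to the 4 motifs on either strand in capitals (CCAAT reads ATTGG and TATAAA reads TTTATA on the other strand). Hist1h1b lies at chr13:21780626-21780875 on the minus strand, Hist1h3c at chr13:23745522-23745771 on the minus strand, Hist1h4d at chr13:23581318-23581567 on the plus strand, and Hist3h2ba at chr11:58948661-58948910 on the plus strand.
Hist1h1b: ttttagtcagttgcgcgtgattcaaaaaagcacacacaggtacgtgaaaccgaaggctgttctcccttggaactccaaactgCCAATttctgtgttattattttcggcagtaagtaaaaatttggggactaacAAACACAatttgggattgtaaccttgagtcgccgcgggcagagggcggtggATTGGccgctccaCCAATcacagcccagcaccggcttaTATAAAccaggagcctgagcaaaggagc
Hist1h3c: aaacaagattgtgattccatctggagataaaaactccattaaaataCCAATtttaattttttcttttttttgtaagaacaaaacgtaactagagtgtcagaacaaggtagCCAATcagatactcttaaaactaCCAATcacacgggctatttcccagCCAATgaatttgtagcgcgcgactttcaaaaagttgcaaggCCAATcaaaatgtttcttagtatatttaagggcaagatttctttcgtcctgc
Hist1h4d: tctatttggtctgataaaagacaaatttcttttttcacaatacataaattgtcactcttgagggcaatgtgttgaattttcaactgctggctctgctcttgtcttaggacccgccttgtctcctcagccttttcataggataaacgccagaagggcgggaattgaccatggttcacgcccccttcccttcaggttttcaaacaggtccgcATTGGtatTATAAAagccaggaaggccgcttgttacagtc
Hist3h2ba: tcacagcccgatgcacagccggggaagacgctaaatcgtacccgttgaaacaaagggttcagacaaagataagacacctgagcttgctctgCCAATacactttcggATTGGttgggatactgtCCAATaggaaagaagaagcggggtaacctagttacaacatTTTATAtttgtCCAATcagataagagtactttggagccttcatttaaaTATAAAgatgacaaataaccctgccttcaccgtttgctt

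Among the 54 members with 1 RefSeq window, an H2A and an H2B gene were transcribed away from each other in 6 places. Their starts were 163 to 248 bases apart. Pairs with a member outside these 54 were not searched, so the 6 may not be all. The whole gap, plus strand, is shown for the pair whose UMIs differed most, Hist1h2ae and Hist1h2bg (chr13:23571221-23571399), and for the closest pair, Hist1h2ak and Hist1h2bn (chr13:21753913-21754075). Capitals mark the same 4 motifs.
Hist1h2ae and Hist1h2bg: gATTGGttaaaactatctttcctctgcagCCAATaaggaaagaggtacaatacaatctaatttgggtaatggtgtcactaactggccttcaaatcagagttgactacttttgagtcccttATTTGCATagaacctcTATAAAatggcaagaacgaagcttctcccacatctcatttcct
Hist1h2ak and Hist1h2bn: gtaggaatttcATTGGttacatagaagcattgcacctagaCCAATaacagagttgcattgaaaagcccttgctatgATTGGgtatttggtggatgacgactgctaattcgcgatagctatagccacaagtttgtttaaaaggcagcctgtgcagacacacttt
The shared gap did not come with equal counts. Hist1h2ae had 6922 UMIs and its neighbour Hist1h2bg 120, a ratio of 57.7, whereas Hist1h2bn had 450 and Hist1h2ak 323. Over the 6 pairs the ratio of the higher to the lower gene ran from 1.34 to 57.7 with a median of 2.72, and H2A was the higher one in 3 pairs.

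After removal of 160 of 4798 barcodes (all distinct), 4638 cells remained. Of these, 2244 carried the Lta-/- hashtag (14054827 UMIs, median 5395 per cell), 2209 the Foxp3eGFP hashtag (15010916 UMIs, median 5547) and 185 both (median 10532). Lta had 72 UMIs in Lta-/- cells, 2.85% of which held one or more, against 509 UMIs and 15.3% of Foxp3eGFP cells; where these 3′ tags lie relative to the deleted part is not given in the sources used here. Of the 4638 cells, 3073 held no UMI of Foxp3 or Il2ra, so the sorted lineage is not visible from these transcripts in most cells. With 1 mouse per genotype and 1 capture, no difference was tested: intervals are 95% intervals that cover counting error only, and cells are not replicates.

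Histone members contributed 64160 UMIs, and H2A and H1 genes held most of them. Each captured transcript gives a tag near its 3′ end whatever its length, so counts were not divided by length, and capture may differ between genes. H2A genes had 24823 UMIs (38.7% of member UMIs), H1 genes 20842 (32.5%), H4 genes 7697 (12.0%), H2B genes 5463 (8.51%) and H3 genes 5335 (8.32%). A few genes made up each type. Among H1 genes, Hist1h1b (RefSeq H1f5) had 10921 UMIs, 52.4% of the type, followed by Hist1h1e (H1f4) with 5334, Hist1h1c (H1f2) with 2136, Hist1h1d (H1f3) with 1428 and Hist1h1a (H1f1) with 1023. Among H2A genes, Hist1h2ap had 12887, Hist1h2ae 6922 and Hist2h2ac 1746 UMIs, and among H3 genes Hist1h3c had 2435, Hist1h3e 900 and Hist1h3f and Hist1h3i 531 each. Hist1h4d led the H4 genes with 4580 UMIs, before Hist1h4h with 1152 and Hist1h4i with 815. H2B genes were the most even type: Hist1h2be had 772, Hist1h2bj 688 and Hist2h2bb 672 UMIs, and the top gene held 14.1% of the type. Core histone genes of a type are near-identical copies, and how reads that match several of them were counted is not given in the sources used here, so the split between single genes is uncertain. The 48 members on chromosome 13 held 73.2% of member UMIs, 9 on chromosome 3 held 5.05%, Hist3h2a and Hist3h2ba on chromosome 11 held 1.56%, Hist4h4 on chromosome 6 held 0.136%, and Hist1h2ap had no RefSeq match.

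Histone UMIs were packed into few cells. The 5% of cells with most member UMIs (231 cells) held 87.0% of them, and 84 cells held 50% of them. By contrast the median cell had 1 member UMI, and 1161 cells had 0. The same count of cells, ranked by its own genes each time, held 92.2% of Mki67 UMIs, 90.3% of those of a mitosis list, 67.5% of a DNA replication list, 49.5% of Mcm2 to Mcm7, 25.7% of histone genes outside the Hist loci and 15.2% of all UMIs. By type the share was 93.1% for H2A, 90.9% for H3, 87.0% for H1, 76.9% for H2B and 74.2% for H4. After each cell was thinned to 3000 UMIs, the top 5% held 71.9% of member UMIs.

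**Figure D1:**
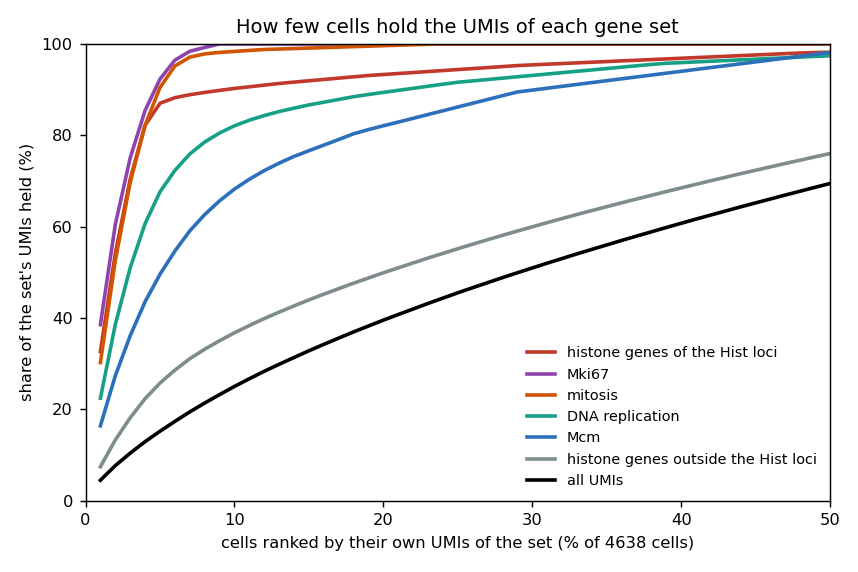
Cumulative share of the UMIs of each gene set (y axis, %) held by the cells with most of them (x axis, % of 4638 cells, ranked separately for each set). The line of the Hist genes climbs with those of Mki67 and the mitosis list to 87.0% at 5% of cells and then bends, while the line of histone genes outside the loci runs near that of all UMIs.

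The bend at 5% of cells separates a steep part, which tracks the mitosis list, from a flat part in which the remaining cells add little each. The richest cell, from the Lta-/- mouse, held 877 member UMIs of 28396 (3.09%), spread over 38 members: 349 of H1, 271 of H2A, 59 of H2B, 84 of H3 and 114 of H4. The next, from the Foxp3eGFP mouse, held 791 of 49327. Types occurred together within cells: of the 250 cells with at least 5 H2A UMIs, 99.6% also had H4 UMIs and 97.6% H2B UMIs, and 276 cells held all 5 types, 256 of them with a Mki67 UMI. Across 4325 thinned cells Pearson's r of H1 with H2A was 0.87 and of H3 with H4 0.65, values that share library and depth and carry no test.

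Cells with at least 10 member UMIs per 10000 UMIs, and at least 5 in all, were called histone-rich, which is a range of a score and not a cell type. They numbered 343 (7.40% of cells) and held 88.6% of member UMIs but 14.9% of all UMIs. Their median was 149 member UMIs over 26 genes in 13283 UMIs, against 1 UMI of 1 gene in 5434 UMIs in the other cells. Around the limit lay 106 cells at 10 to 20 per 10000 and 768 cells at 5 to 10, whereas 172 cells exceeded 100. Of the histone-rich cells 254 (74.1%) held a Mki67 UMI. The 15 other genes with the largest ratio of histone-rich over other cells, named by size with no test, were Esco2 (log2 6.97), Mxd3 (6.96), Ankle1 (6.52), Neil3 (6.41), Pbk (6.34), E2f8 (6.21), Ttk (5.92), Rrm2 (5.86), E2f7 (5.84), Aurkb (5.75), Nusap1 (5.74), Spc25 (5.67), Bub1 (5.63), Cdca3 (5.61) and Ska1 (5.54). Esco2 acetylates cohesin in S phase, Rrm2 is the ribonucleotide reductase subunit that supplies DNA precursors, E2f7 and E2f8 are repressors of the E2F family, and Aurkb, Ttk and Bub1 are kinases of mitosis and its checkpoint.

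Markers of other cells were read in the same classes, and their part in the result was not tested. Over the 9 markers of double-positive thymocytes the summed level was 186 CPM (UMIs per 1000000) in histone-rich cells and 111 CPM in other cells, and Dntt, a polymerase of immature thymocytes, was detected in 13.4% and 3.98% of them. The 6 gamma-delta T markers summed to 124 and 44.0 CPM, the 6 NK markers to 63.0 and 25.9 CPM, the 8 myeloid markers to 175 and 197 CPM, and the 9 B or plasma markers to 52.4 and 474 CPM, in histone-rich and other cells in that order. Cells with at least 3 myeloid UMIs were 23.6% of histone-rich and 5.05% of other cells, and they held 31.5% of member UMIs and 11.7% of all UMIs. This cut is not corrected for depth, and histone-rich cells had a median of 13283 UMIs against 5434 in the others. Of 7 myeloid genes measured, 0 were at least 1.5-fold higher in histone-rich cells and 4 were lower. Among all 10813 genes tested, 1369 were higher and 2179 lower. Trdv4, Ncr1, Hba-a1, Hba-a2, Hbb-bs and Alas2 had 0 UMIs in histone-rich cells. T cell identity genes summed to 8454 CPM in histone-rich cells and 8934 CPM in other cells, and Cd3d was detected in 98.5% and 98.2% of them.

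Mki67, which codes for a protein that coats mitotic chromosomes, set apart the cells with most histone UMIs. Members summed to 9512 CPM in the 415 Mki67+ cells (at least 1 UMI, median 13565 UMIs per cell) and 288 CPM in the 4223 Mki67- cells (median 5354), a log2 ratio of 5.04 (5.01 to 5.08). The mice gave 9048 and 299 CPM in Lta-/- cells (log2 4.92) and 10210 and 280 CPM in Foxp3eGFP cells (log2 5.19), so each mouse showed the gap. Thinned to equal depth the levels were 8396 and 301 CPM. By type the log2 ratio was 6.06 for H2A, 5.72 for H3, 5.00 for H1, 3.98 for H2B and 3.78 for H4. At least 1 H1 UMI was present in 85.8% of Mki67+ and 36.0% of Mki67- cells, and at least 1 H3 UMI in 71.8% and 8.17%. The level in Mki67- cells pools free RNA, transcripts of cells outside division and those of cycling cells in which no Mki67 UMI was captured. The split among these was not tested, and 89 of the Mki67- cells were histone-rich.

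Gene by gene, 49 of the 51 members with at least 50 UMIs were 1.5-fold or more higher in Mki67+ cells and 0 were lower, where 12.9% of all 10813 genes tested were higher and 18.9% lower. Without the minimum 59 of 61 members were higher. The median log2 ratio was 5.22 for these 51 members and -0.12 for all genes tested. In thinned cells 29 members reached the 50 UMIs and the fold.

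Hist1h1b, which codes for a replication-dependent linker histone, was at 1744 and 9.57 CPM in Mki67+ and Mki67- cells of the Lta-/- mouse and at 1901 and 11.0 CPM in those of the Foxp3eGFP mouse, log2 7.48 over all cells (7.30 to 7.67). Hist1h1a, the H1 gene with fewest UMIs, was at log2 5.91, Hist1h1d at 4.74 and Hist1h1e at 4.01. Hist1h1c was the lowest H1 gene at log2 2.79, with 220 and 34.9 CPM in Mki67+ and Mki67- cells of the Lta-/- mouse and 238 and 28.5 CPM in those of the Foxp3eGFP mouse. The order of H1 genes was alike in both mice, with Hist1h1b highest and Hist1h1c lowest. Among H2A genes, Hist1h2ap was at log2 7.39, Hist1h2ae at 7.07 and Hist2h2ac at 4.34. The highest ratio of any member belonged to Hist1h2af with 389 and 1 UMIs (log2 10.68, 8.19 to 15.98), an H2A gene nearly confined to Mki67+ cells in these counts. The lowest was Hist3h2a (RefSeq H2aw) on chromosome 11, at 9.36 and 14.2 CPM in Mki67+ and Mki67- cells of the Lta-/- mouse and 11.5 and 13.7 CPM in those of the Foxp3eGFP mouse (log2 -0.48, -0.90 to -0.08). It was the sole member tested whose ratio was below 0, in each mouse.

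Ranks within a type are given over the 51 members with at least 50 UMIs. Among H2B genes, Hist2h2bb was at log2 5.22, Hist1h2bj at 6.43 and Hist1h2be at 3.97, and the highest was Hist1h2bp with 55 and 1 UMIs (log2 7.85, 5.31 to 13.18). At the low end stood Hist2h2be (log2 0.55, -0.19 to 1.24), Hist3h2ba (0.68, 0.41 to 0.94) and Hist1h2bc (1.44, 1.15 to 1.73). Hist3h2ba, the neighbour of Hist3h2a on chromosome 11, was at 28.1 and 19.7 CPM in Mki67+ and Mki67- cells of the Lta-/- mouse and 26.6 and 14.0 CPM in those of the Foxp3eGFP mouse. Among H3 genes, Hist1h3c was at log2 8.21 (345 and 1.10 CPM in the Lta-/- mouse, 462 and 1.62 CPM in the Foxp3eGFP mouse), Hist1h3b at 8.30 with 225 and 3 UMIs, Hist1h3i at 6.24, Hist1h3f at 4.74, Hist1h3e at 4.57 and Hist2h3b, the lowest, at 3.99. Among H4 genes, Hist1h4a, the highest, was at log2 5.38, Hist1h4h at 3.96, Hist1h4d at 3.79 and Hist1h4i at 3.32, while Hist4h4 on chromosome 6 was at 1.00 (0.29 to 1.67). Of these 51 members, the 28 with log2 ratios of 5 or more held 63.8% of member UMIs and the 3 between 0 and 1 held 1.20%, while Hist3h2a held 0.641%.

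**Figure D2:**
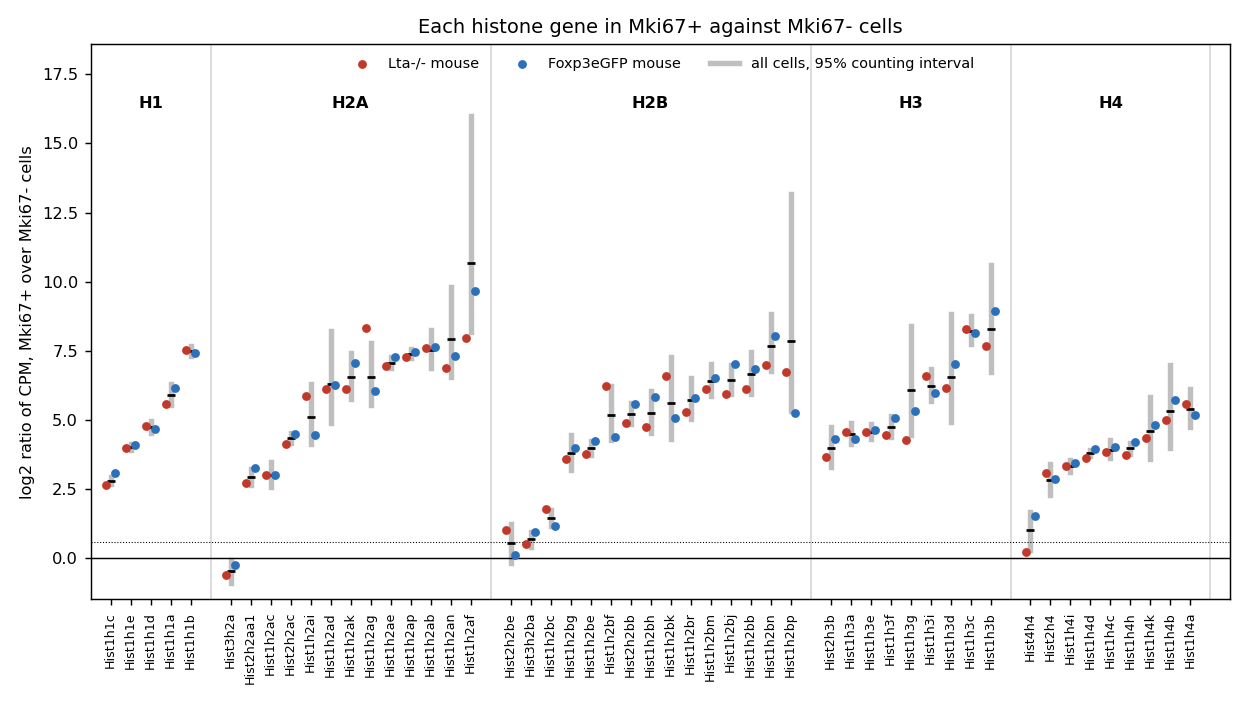
Log2 ratio of CPM in Mki67+ over Mki67- cells (y axis) for the 51 members with at least 50 UMIs (x axis, by histone type and ratio). Points are the mice, with a class at 0 UMIs set to 3 counts, black bars are all cells with their 95% counting interval in grey, and the dotted line marks 1.5-fold: Hist3h2a alone lies below 0.

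The mix of histone genes therefore differed between cycling and quiet cells (no Mki67 UMI and fewer than 3 UMIs of Mcm2 to Mcm7). Hist1h1b made up 18.7% of member UMIs in Mki67+ cells and 2.83% in quiet cells, Hist1h2ap 22.1% and 4.21%, and Hist1h2ae 11.8% and 2.82%. The quiet cells instead held larger parts of Hist1h1e (7.43% in Mki67+ and 15.3% in quiet cells), Hist1h4d (6.18% and 14.9%), Hist1h1c (2.33% and 11.9%), Hist3h2ba (0.286% and 6.41%), Hist3h2a (0.105% and 5.11%) and Hist1h2bc (0.292% and 3.66%).

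Mcm2 to Mcm7 code for the helicase that unwinds DNA ahead of the replication fork, and cells with at least 3 of their UMIs were called Mcm-high. Members summed to 5513 CPM in the 847 Mcm-high cells and 405 CPM in the 3791 others (log2 3.77, 3.73 to 3.80), and 47 of 51 members were at least 1.5-fold higher and 1 lower (Hist3h2a, log2 -0.65), against 13.4% and 13.3% of all genes. Without the minimum 55 of 61 were higher and 1 lower. The log2 ratio of the sum was 3.77 in the Lta-/- mouse and 3.81 in the Foxp3eGFP mouse, and 2.46 after thinning.

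Mki67 and Mcm together gave a sharper picture than either. In the 295 cells that were Mki67+ and Mcm-high, members reached 11126 CPM (10418 in the Lta-/- mouse, 12013 in the Foxp3eGFP mouse), and in the 120 cells that were Mki67+ and Mcm-low 2354 CPM (2265 and 2578 in the same order of mice). The 552 Mki67- Mcm-high cells had 253 CPM (262 and 250), no more than the 298 CPM (306 and 288) of the 3671 cells with neither. Mcm UMIs without Mki67 thus came with no higher histone level, and the log2 ratio over cells with neither was -0.23 (-0.32 to -0.15). Of the 24 members with 50 UMIs in that comparison 3 were higher (Hist1h3a 2.47, Hist1h1b 0.92 and Hist1h1a 0.70) and 6 lower (Hist2h2be -1.21, Hist1h1d -1.11, Hist3h2ba -1.02, Hist1h2ac -0.92, Hist1h1c -0.86 and Hist3h2a -0.72), beside 8.10% and 8.04% of all genes. Without the minimum 20 of 61 members were higher and 13 lower, and 7 of the 61 had 0 UMIs in Mki67- Mcm-high cells. The median log2 ratio was -0.25 for the 24 members and 0.06 without the minimum. With 3 counts in place of 0, a member with 0 UMIs in this smaller class could count as higher. Hist1h2af, with 1 UMI in cells with neither, was such a case. The 20 and the 0.06 can be raised in this way and give no direction. In the Mki67- Mcm-high cells 18 of 18 genes of the DNA replication list were higher, as were the 6 Mcm genes, which chose the class. A few histone-rich cells lay outside both: 77 cells with neither marker had a median of 6 member UMIs, and Hist1h1e (109), Hist1h4d (58) and Hist1h1c (57) led their 504 member UMIs.

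Mki67+ cells were then ordered by the share of replication (with Mcm) UMIs among replication and mitosis UMIs, Mki67 left out, and cut into 4 bins of 86 or 87 cells; 70 of the 415 cells had fewer than 10 such UMIs and were not ordered. Bin 1 holds the largest replication share and bin 4 the largest mitosis share. Members summed to 4300, 14699, 14635 and 7204 CPM in bins 1 to 4, so they peaked in the middle, while Mcm genes stood at 1607, 1205, 494 and 182 CPM and Mki67 at 332, 885, 1381 and 1527 CPM. The Lta-/- mouse gave 5151, 16237, 13447 and 8342 CPM and the Foxp3eGFP mouse 4029, 14589, 15541 and 6644 CPM, the middle bins again the highest. Histone-rich cells made up 40.2%, 95.3%, 88.4% and 69.8% of bins 1 to 4. All 5 types shared this course: H1 had 1464, 4852, 4534 and 2345 CPM and H2A 1690, 6191, 6070 and 2813 CPM. Pooled over the mice, H2B, H3 and H4 were highest in bin 3 (1145, 1392 and 1494 CPM). This split from H1 and H2A was seen in neither mouse. All 5 types were highest in bin 2 in the Lta-/- mouse and in bin 3 in the Foxp3eGFP mouse.

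**Figure D3:**
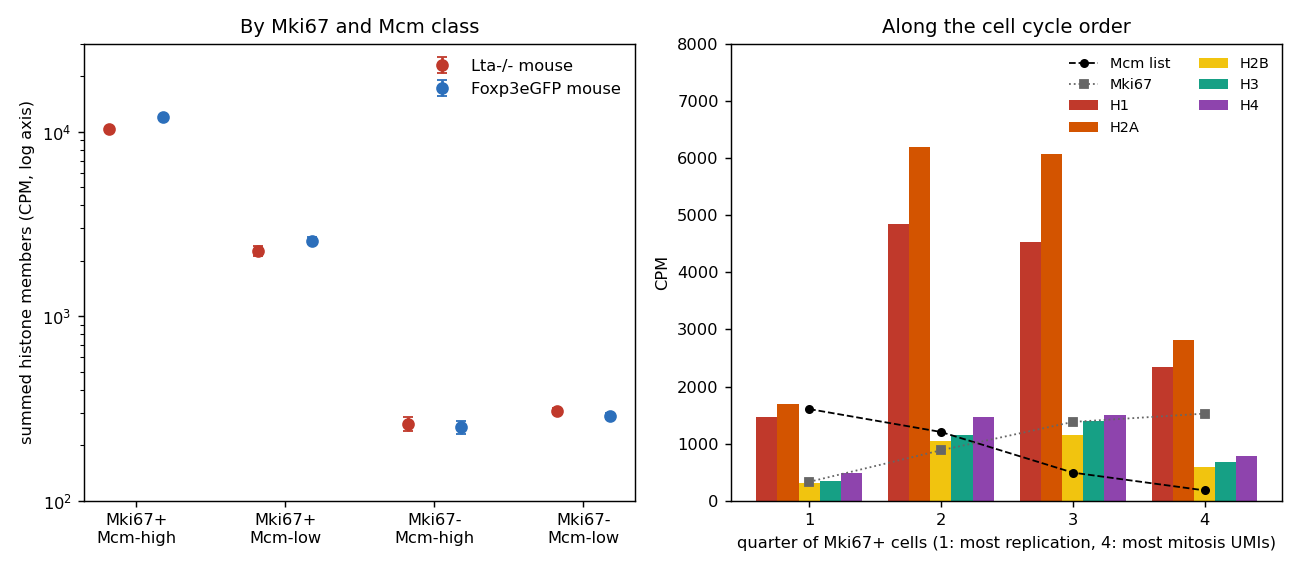
Left: summed member level (CPM, log axis) in the 4 Mki67 and Mcm classes, with points for the mice and 95% counting intervals; the Mki67+ Mcm-high cells are highest and both Mki67- classes lie between 250 and 306 CPM. Right: CPM of each histone type (bars), Mcm genes and Mki67 (lines) in 4 bins of Mki67+ cells ordered from most replication to most mitosis UMIs; all types are highest in the middle bins.

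Single genes differed in which bin was highest, pooled over the mice and without intervals. Of 47 members with enough UMIs, 21 were highest in bin 2, 24 in bin 3, Hist3h2a and Hist3h2ba in bin 4, and 0 in bin 1. Some members were nearly equal in bins 2 and 3, such as Hist1h1e (1071 and 1055 CPM) and Hist1h4d (885 and 874 CPM). For these the highest bin says little. Hist3h2a had 54 UMIs and Hist3h2ba 157 UMIs over the 4 bins. Hist1h1a (100, 313, 216 and 48.8 CPM) and Hist1h4a (28.8, 71.0, 37.6 and 10.1 CPM) were early, higher in bin 1 than in bin 4. Hist1h1b (898, 2906, 2497 and 1362 CPM) peaked in bin 2, whereas Hist1h1c (70.8, 248, 419 and 213 CPM) and Hist1h3c (140, 530, 717 and 346 CPM) peaked in bin 3. Hist3h2ba stood at 7.71, 29.9, 33.3 and 44.2 CPM and Hist3h2a at 4.91, 7.66, 11.6 and 15.5 CPM, highest where mitosis genes were. Outside the loci, H2afx, the variant that is phosphorylated at DNA breaks, went 190, 757, 1220 and 1440 CPM, and Cenpa, the H3 variant of centromeres, 46.3, 177, 608 and 1154 CPM.

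Genes that process histone transcripts and carry histones were read from a list of 17, of which 15 had 50 UMIs. In Mki67+ over Mki67- cells 9 of the 15 were at least 1.5-fold higher and 0 lower (median log2 0.69). Slbp, which binds the stem-loop of histone transcripts, was at log2 2.31, and its level over the 4 bins was 361, 454, 209 and 41.8 CPM. Asf1b and Chaf1a, chaperones that hand H3 and H4 to new DNA, were at 4.85 and 3.00, Eri1, an exonuclease that trims histone transcripts, at 1.49, Nasp, a carrier of free H3 and H4, at 1.43 and Hat1, which acetylates new H4, at 1.25. Npat and Casp8ap2, parts of the histone locus body that drives these genes, were at 0.60 and 0.69, while Lsm10 (-0.07) and Cpsf3 (0.06), parts of the machinery that makes the 3′ end, lay near 0. Of 9 measured histone genes outside the loci 5 were higher (median log2 1.05): H2afx at 4.22, Cenpa at 3.63, H2afz and H2afv at 2.10 and H1f0 at 1.05. The replacement histone genes H3f3a and H3f3b, transcribed through the cell cycle, were at 0.38 and 0.09. All genes of the lists of mitosis (18 of 18, median 7.45), DNA replication (18 of 18, median 3.05) and Mcm (6 of 6, median 1.65) were higher, and 10 of 11 Treg genes were lower (median -1.52). Of marker lists, 5 of 5 gamma-delta T genes (median 1.60), 4 of 7 double-positive thymocyte genes (2.43) and 4 of 7 B or plasma genes (0.61) were higher, while 6 of 7 myeloid genes were lower (-1.08). A single cell held 5235 of the 5441 B or plasma UMIs in Foxp3eGFP Mki67+ cells. The part of these markers in the histone levels was not tested.

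Between genotypes, members were lower in Lta-/- cells: 1696 CPM (23833 UMIs) against 2470 CPM (37081 UMIs) in Foxp3eGFP cells, log2 -0.54 (-0.57 to -0.52). The difference stood in every type, at log2 -0.72 for H3, -0.57 for H4, -0.56 for H2A, -0.49 for H1 and -0.47 for H2B. Of 49 members with 50 UMIs, 20 were at least 1.5-fold lower and 0 higher, where 2.83% of all genes were lower and 2.41% higher; without the minimum 28 of 61 were lower and 1 higher. The median log2 ratio was -0.51 for the 49 members and 0.00 for all genes tested. With 1 mouse each, genotype and mouse cannot be told apart.

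The lower members came from all types. Of H2B genes 6 of 15 were lower, although the summed H2B level differed least of the types: Hist1h2br was at 4.77 CPM in Lta-/- and 11.1 CPM in Foxp3eGFP cells (log2 -1.21, -1.65 to -0.80), Hist1h2bn at 8.89 and 20.1 CPM (-1.18) and Hist1h2bb at 8.11 and 17.9 CPM (-1.14), followed by Hist1h2bk (-1.05), Hist1h2bm (-0.70) and Hist1h2bj (-0.62). Of H3 genes 4 of 8 were lower: Hist1h3a (-0.91), Hist1h3c with 56.1 and 103 CPM (-0.88), Hist1h3i (-0.84) and Hist1h3b (-0.74). Of H4 genes 4 of 8 were lower: Hist1h4c (-0.80), Hist1h4h (-0.69), Hist1h4a (-0.64) and Hist1h4d with 117 and 179 CPM (-0.61). Of H2A genes 5 of 13 were lower: Hist1h2ag (-0.83), Hist1h2ak (-0.67), Hist1h2af (-0.61), Hist1h2ap with 332 and 500.4 CPM (-0.59) and Hist1h2ad (-0.59). Of H1 genes 1 of 5 was lower, Hist1h1a with 23.8 and 40.9 CPM (-0.78), and Hist1h1b was just short of the fold at 286 and 428 CPM (-0.58).

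Beside the lower sum, Mki67+ cells were a smaller share of the Lta-/- cells. Mki67+ cells made up 7.26% of Lta-/- cells (163, interval 6.22% to 8.42%) and 10.3% of Foxp3eGFP cells (228, 9.08% to 11.7%), and histone-rich cells 6.24% (140) and 8.60% (190). Within Mki67+ cells the sum was 9048 CPM in Lta-/- and 10210 CPM in Foxp3eGFP cells, log2 -0.17 (-0.20 to -0.15), and within Mki67- cells 299 and 280 CPM, log2 0.10 (0.03 to 0.16). The ratio within Mki67+ cells was -0.33 after thinning, where that of all cells was -0.62. It was -0.37 as a mean over cells, where that of all cells was -0.60, and -0.43 without the 1421 cells with at least 3 UMIs of another cell type's markers, where that of all cells was -0.58. In Mki67+ cells 3 of 47 members were lower, the H2B genes Hist1h2br (-0.84), Hist1h2bn (-0.75) and Hist1h2bb (-0.74), and 1 was higher, Hist1h2bc with 37.0 CPM in Lta-/- and 21.7 CPM in Foxp3eGFP cells (0.77), beside 3.00% and 3.10% of all genes. Few members thus passed the fold within the cycling cells.

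Cell by cell, the Mki67+ cells of the mice were spread unlike the sums. The median Mki67+ cell held 27 member UMIs in the Lta-/- mouse (range 0 to 877) and 114 in the Foxp3eGFP mouse (0 to 791), or 19.2 and 86.1 per 10000 UMIs. Cells above 100 per 10000 made up 33.7% of Lta-/- and 46.9% of Foxp3eGFP Mki67+ cells. Along the cycle order, 31.9% of Lta-/- Mki67+ cells (24.8% to 39.6%) and 47.8% of Foxp3eGFP Mki67+ cells (41.2% to 54.5%) lay in bins 2 and 3, where members are highest, 25.8% and 17.1% in bin 1, and 24.5% and 11.8% were not ordered. Of the mitosis list 15 of 18 genes were lower in Lta-/- cells and of the DNA replication list 2 of 18. Marker sums that differed beside this were double-positive thymocyte genes at 105 CPM in Lta-/- and 141 CPM in Foxp3eGFP cells, gamma-delta T genes at 37.9 and 76.0 CPM, NK genes at 27.0 and 37.2 CPM, myeloid genes at 182 and 198 CPM and B or plasma genes at 101 and 749 CPM. Among Mki67+ cells the B or plasma sum rested on 1 Foxp3eGFP cell with 5235 of 5441 UMIs, which held 3 member UMIs. The part of the other lists in the difference was not tested.

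**Figure D4:**
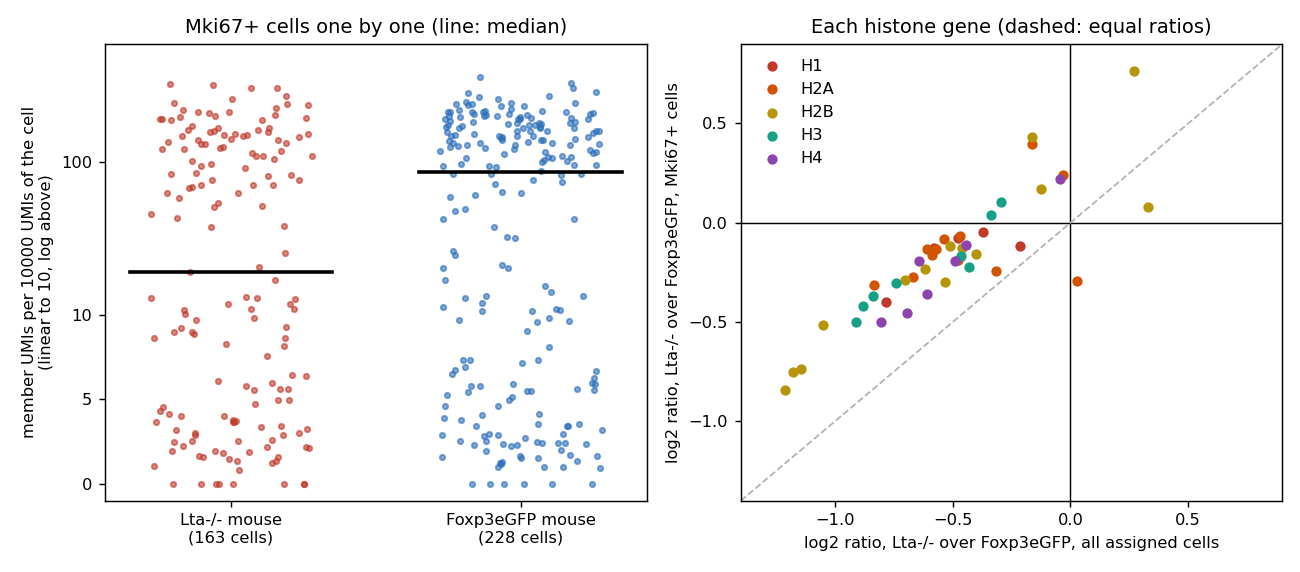
Left: member UMIs per 10000 UMIs of each Mki67+ cell (y axis, linear to 10 and log above) in the Lta-/- and Foxp3eGFP mouse, with medians at 19.2 and 86.1. Right: log2 ratio of each member, Lta-/- over Foxp3eGFP, in all assigned cells (x axis) against the same in Mki67+ cells (y axis); most points lie above the dashed line of equal ratios, nearer to 0 on the y axis.

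Foxp3 and Il2ra transcripts were less frequent in histone-rich cells. Foxp3, the lineage factor of Treg cells, was detected in 9.91% of histone-rich and 21.3% of other cells, and Il2ra, which codes for CD25, in 10.5% and 23.4%. Since histone-rich cells are deeper, the shares after thinning were lower in both classes, at 5.06% and 14.2% for Foxp3 and 5.36% and 17.6% for Il2ra. As CPM, Foxp3 was at 14.6 in histone-rich and 58.8 in other cells, and Il2ra at 16.8 and 97.2. The 11 Treg genes summed to 820 and 2381 CPM, but 72.0% of histone-rich and 79.6% of other cells held at least 3 of their UMIs. Tnfrsf18, a costimulatory receptor, was detected in 65.0% and 68.0% of them, and Izumo1r, a surface folate receptor family member, in 60.9% and 49.4%. These last shares are not corrected for the greater depth of histone-rich cells. As CPM both genes were lower in histone-rich cells, Tnfrsf18 at 109 and 338 and Izumo1r at 159 and 223. Of the 11 Treg genes, 10 were at least 1.5-fold lower in histone-rich cells and 0 higher, where 2179 of all 10813 genes tested were lower and 1369 higher.

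Cells were also classed by those transcripts themselves. Members summed to 1360 CPM in the 615 cells with Il2ra only, 906 CPM in the 524 with Foxp3 only, 2574 CPM in the 3073 with neither and 610 CPM in the 426 with both. Over cells with both, the log2 ratios were 1.16 (1.08 to 1.23), 0.57 (0.48 to 0.66) and 2.08 (2.01 to 2.15). Mki67+ cells made up 5.04%, 4.96%, 10.9% and 5.16% of the 4 classes in that order, with the largest share in the cells with neither. Of members with 50 UMIs, 19 of 26 were at least 1.5-fold higher in Il2ra only cells (9.66% of all genes), 6 of 19 in Foxp3 only cells (3.68%) and 44 of 49 in cells with neither (13.6%). Without the minimum these were 34, 24 and 50 of 61. The 24 include Hist1h4m, Hist1h4k and Hist1h2bk, with 0 UMIs in Foxp3 only cells and 1, 2 and 2 in cells with both. They passed the fold only because 3 counts stand in place of 0. The Il2ra only count differed between the mice. In the Lta-/- mouse 0 of 6 members were higher and 2 lower (10.9% and 4.31% of all genes), and in the Foxp3eGFP mouse 15 of 17 were higher and 0 lower (10.9% and 6.45%). Among quiet cells 0 of 9 were higher and 1 lower (9.53% and 4.64%).

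In Il2ra only over both cells the pooled ratios of the higher members ran from log2 0.78 (Hist1h1d) to 2.26 (Hist2h2bb), and those of single genes turned between the mice. Hist1h1b was at log2 2.00 over all cells, -0.71 in the Lta-/- mouse (59 and 61 UMIs) and 2.36 in the Foxp3eGFP mouse (924 and 116 UMIs). Hist1h2ap was at 1.43, -0.16 and 1.61 and Hist1h1e at 0.82, -0.54 and 1.47 in the same order. Hist2h2bb had 7 and 3 UMIs in the Lta-/- mouse and 55 and 7 UMIs in the Foxp3eGFP mouse. In Foxp3 only cells the higher members were Hist1h3e (1.19), Hist1h3c (1.17), Hist1h2ap (0.88), Hist1h4i (0.87), Hist1h1b (0.85) and Hist1h1e (0.64).

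The members higher in cells with neither came from all 5 types. Many of their log2 ratios rest on few UMIs in cells with both. UMIs in cells with neither and both were 207 and 1 for Hist1h3b (log2 interval 2.37 to 10.18). They were 293 and 2 for Hist1h2ak (2.50 to 7.42) and 201 and 3 for Hist1h2an (1.67 to 5.53). Hist1h2ai (74 and 0) and Hist1h2ad (73 and 0) had 3 counts in place of 0, which sets the size of their ratios. Hist1h2ap (11005 and 276) and Hist1h1b (9287 and 187) were better counted. The 5 H1 genes higher in cells with neither were Hist1h1b (2.81), Hist1h1a (2.26), Hist1h1e (1.81), Hist1h1d (1.80) and Hist1h1c (0.68). The 11 H2A genes higher in cells with neither were Hist1h2ak (4.37), Hist1h2an (3.24), Hist1h2af (3.00), Hist1h2ap (2.49), Hist1h2ag (2.40), Hist1h2ae (2.25), Hist1h2ab (2.12), Hist2h2ac (2.07), Hist1h2ai (1.80), Hist1h2ad (1.78) and Hist2h2aa1 (0.67). The 13 H2B genes higher in cells with neither were Hist1h2bm (3.33), Hist2h2bb (2.99), Hist1h2bb (2.80), Hist1h2bf (2.68), Hist1h2br (2.52), Hist1h2bj (2.37), Hist1h2bh (2.28), Hist1h2bn (2.18), Hist1h2bk (2.03), Hist1h2be (1.97), Hist1h2bg (1.89), Hist2h2be (1.78) and Hist1h2bp (1.17). The 8 H3 genes higher in cells with neither were Hist1h3b (4.87), Hist1h3c (3.21), Hist1h3i (3.02), Hist1h3e (2.54), Hist1h3a (2.35), Hist1h3f (2.14), Hist1h3d (1.44) and Hist2h3b (1.26). The 7 H4 genes higher in cells with neither were Hist1h4a (2.22), Hist1h4k (2.00), Hist1h4d (1.67), Hist1h4h (1.58), Hist1h4i (1.38), Hist1h4c (1.22) and Hist2h4 (0.90).

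The class differences changed with thinning and rested on few cells. Thinned cells were classed again by their thinned counts, which gave 507, 370, 3235 and 213 cells. These 4 classes stood at 437, 363, 1284 and 451 CPM, so pooled Il2ra only and Foxp3 only cells no longer exceeded the cells with both. By mouse, thinned Il2ra only cells and cells with both had 365 and 490 CPM in the Lta-/- mouse. In the Foxp3eGFP mouse they had 474 and 425 CPM. Among quiet cells, unthinned, the 4 classes stood at 263, 327, 299 and 302 CPM, a narrow band. By mouse, Il2ra only cells had 501 CPM and cells with both 644 CPM in the Lta-/- mouse (log2 -0.36), but 1855 and 651 CPM in the Foxp3eGFP mouse (log2 1.51). In that Foxp3eGFP class 5 of 316 cells held 58.6% of member UMIs and 11 held at least 100 each, against 2 of 268 cells in the Lta-/- mouse; among Lta-/- cells with both transcripts, 1 cell with 356 member UMIs held 52.0%. Foxp3 only cells had 968 CPM and cells with both 644 CPM in the Lta-/- mouse (0.59), and 769 and 651 CPM in the Foxp3eGFP mouse (0.24). Cells with neither had 2106 and 3117 CPM in the Lta-/- and Foxp3eGFP mouse, above those with both in each (1.71 and 2.26).

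**Figure D5:**
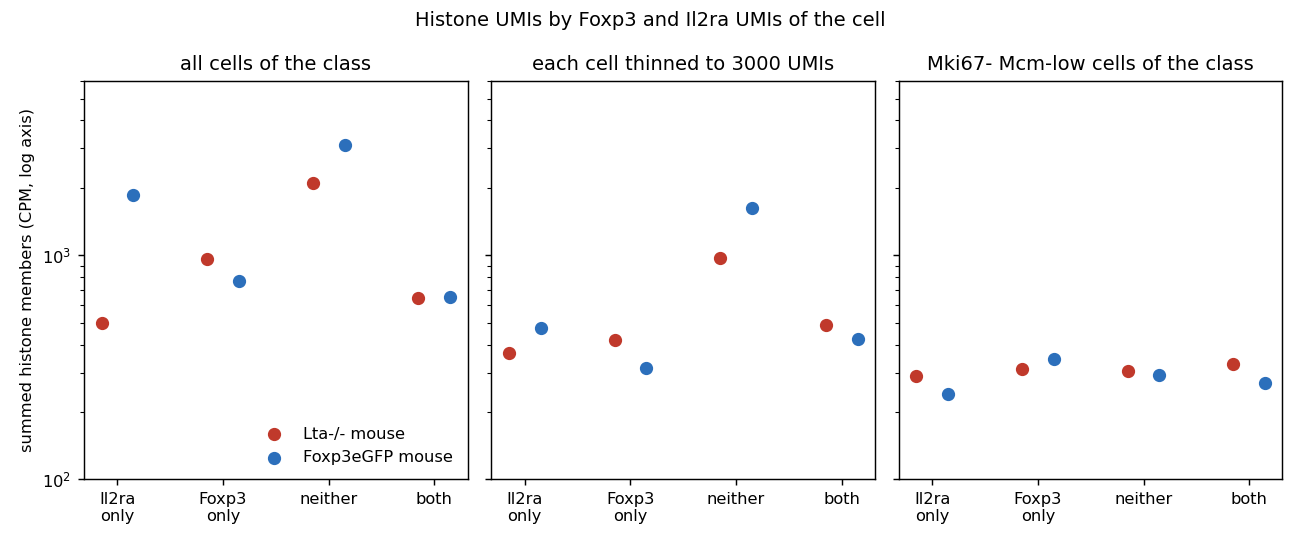
Summed member level (CPM, log axis) in cells with Il2ra only, Foxp3 only, neither or both transcripts, with a point for each mouse: in all cells, in cells thinned to 3000 UMIs and in Mki67- Mcm-low cells. The second panel classes the cells again by their thinned counts. Cells with neither are highest in the first and second panels, and in the third all classes lie between 240 and 346 CPM.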

How the data were processed

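The 10x Genomics 3′ messenger RNA library of the pooled cells was used together with the hashtag counts. Raw UMI counts per gene and cell were deposited by the authors as a sparse matrix, made with Cell Ranger 6.0.1 on mm10 (GRCm38), per the submitters' processing notes. How reads matching several genes were handled is not given in the sources used here.

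A barcode counted as a cell from 500 detected genes up, unless more than 10% of its UMIs were mitochondrial. A cell was given to a mouse when it had at least 10 hashtag counts and 1 hashtag held at least 80% of them. The names of the hashtag features gave the genotype, and the antibody numbers in the labels' protocol run the other way. Cells with both hashtags stayed in comparisons of cell classes and were left out of those of genotype, and no doublet caller was run. Each class of cells was pooled into a sum of UMIs, given as CPM (per 1000000). Log2 ratios carry exact conditional binomial intervals, shares Clopper-Pearson intervals and levels exact Poisson intervals, all at 95%, with 3 counts in place of 0. A gene was called at 1.5-fold with at least 50 UMIs in the compared classes together. Thinned values draw 3000 UMIs per cell without replacement and leave out shallower cells, which kept 4325 cells. The log2 ratio and its interval were tested on simulated Poisson sums. These hold no spread between cells, so the test does not cover member UMIs packed into few cells. Python 3.11.15, numpy 2.4.6, scipy 1.17.1 and pandas 2.3.3 were used.

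The members and lists were chosen with earlier results of these data known. Members named were the 3 with most UMIs of each type, the highest and lowest by Mki67 ratio, those called in the other comparisons, and the 15 other genes leading in histone-rich cells among genes with at least 100 UMIs. Members named outside this rule were chosen after their values were seen.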

Additional observations from a re-analysis of the deposited data

Results flagged for a closer look

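The sum of members in cells with Il2ra only over cells with both Foxp3 and Il2ra pointed opposite ways in the mice: log2 -0.36 in the Lta-/- mouse and 1.51 in the Foxp3eGFP mouse. The difference between the mice was not tested, since there was 1 mouse of each genotype. In the Lta-/- mouse 1 of the 172 cells with both transcripts held 52.0% of their member UMIs, and in the Foxp3eGFP mouse 5 of the 316 cells with Il2ra only held 58.6% of theirs. Among cells without Mki67 UMIs and with fewer than 3 Mcm UMIs the Il2ra only cells stood at 290 CPM and cells with both at 328 CPM in the Lta-/- mouse, and at 240.1 and 268 CPM in the Foxp3eGFP mouse.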

How the results depend on the processing

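Of 120 alternatives over 11 results, 54 left the value where it was, 60 moved it and 6 turned its direction; the cause was not tested. The count of members lower in Lta-/- cells and the ratio of histone-rich shares stayed within their limits in all alternatives run. No paired analysis was possible because each genotype had 1 mouse. Near-identical histone copies, capture at A-rich ends, 1 mouse per genotype and 1 capture limit every value.

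Thinning to 3000 UMIs gave 71.9% of member UMIs in the top 5% of cells, 29 members higher in Mki67+ cells, and log2 ratios of 4.73 (Mki67+ over Mki67-), 2.46 (Mcm-high over others), -0.62 (Lta-/- over Foxp3eGFP), -0.33 (the same in Mki67+ cells), -0.044 (Il2ra only over both), -0.31 (Foxp3 only over both) and 1.51 (neither over both). In the same order of results, leaving out the 1421 cells with at least 3 UMIs of another cell type's markers gave 82.2% and 5.27, 3.72, -0.58, -0.43, 0.75, 1.19 and 2.33. Without the 3 members with most UMIs the values were 78.2% and 4.13, 3.04, -0.51, -0.22, 0.82, 0.45 and 1.75. Without the 10 cells with most member UMIs they were 85.9% and 4.94, 3.62, -0.60, -0.26, 0.97 and 1.93, Foxp3 only over both staying at 0.57. The mean over cells gave 4.76, 3.47, -0.60, -0.37, 0.49, 0.34 and 1.56.

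Without cells with both hashtags the top 5% held 87.3%, and the ratios were 3.81 for Mcm-high, 0.98 for Il2ra only and 0.42 for Foxp3 only cells. In Lta-/- cells alone they were 4.92 for Mki67+, -0.36 for Il2ra only and 1.71 for neither, and in Foxp3eGFP cells alone 5.19 for Mki67+, 3.81 for Mcm-high, 1.51 for Il2ra only, 0.24 for Foxp3 only and 2.26 for neither. Mki67+ at 2 UMIs gave 5.14, and -0.095 for the genotypes within Mki67+ cells, and Mcm-high at 5 UMIs gave 3.46. Classes of Foxp3 and Il2ra at 2 UMIs gave 1.55, -0.16 and 2.20 for Il2ra only, Foxp3 only and neither, and cells without Mki67 and with fewer than 3 Mcm UMIs gave -0.20, 0.11 and -0.014. An alternative chosen after seeing the data, leaving out 205 cells with at least 3 double-positive thymocyte UMIs, gave 5.10 for Mki67+, 3.83 for Mcm-high, -0.57 for Lta-/-, 1.08 for Il2ra only, 1.13 for Foxp3 only and 2.58 for neither.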
